A study of Mus musculus with 6 samples.

Results

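The genes described here are the enzymes that attach palmitate to proteins and take it off again, with their RNA levels in 4T-1, a cell line derived from a mouse mammary tumour. They were taken from a fixed list by gene symbol and comprise 33 of the 55487 genes in the count table: 21 zDHHC acyltransferases and 12 thioesterases, Lyplal1 among them. All 33 were found. The 6 libraries came from 3 Lyplal1 knockout samples, named for a guide called sg2 in the sample descriptions, and 3 wild-type samples, named NC there. Both groups were labelled as untreated, and no other allele or agent is named. The labels do not say whether the knockout samples are 1 clone, several clones or a pool, nor whether the 3 samples of a group were separate cultures, so p-values measure the spread between these samples, which may be technical.

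Protein S-palmitoylation is the attachment of a fatty acid, usually palmitate, to a cysteine through a thioester bond. It anchors soluble proteins to membranes and sorts membrane proteins, and unlike most lipid anchors it can be removed. Acyltransferases of the zDHHC family span the membrane several times and carry a cysteine-rich domain with the motif Asp-His-His-Cys, whose cysteine takes the acyl group from palmitoyl-CoA and passes it on. Thioesterases of the serine hydrolase fold release it: the acyl-protein thioesterases encoded by Lypla1 and Lypla2 and the ABHD17 proteins act on cytosolic faces of membranes, PPT1 and PPT2 work in lysosomes and ABHD10 in mitochondria. The series title ties LYPLAL1, a relative of Lypla1 and Lypla2, to the depalmitoylation of cGAS, a sensor of DNA in the cytosol. ZDHHC9 and ZDHHC18 are both known to palmitoylate cGAS, and ZDHHC3, ZDHHC7 and ZDHHC15 to palmitoylate STING, its adaptor.

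The coding letters of the catalytic motif are shown for members whose levels the results turn on, since this short stretch is what makes a gene a member of the family. They come from GENCODE M21 transcripts on GRCm38, all lie in coding exons, and run 5′ to 3′ on the transcript, with the 4 motif codons in capitals.
Zdhhc18: gaacggtttGACCATCACTGCccttgggtg
Zdhhc9: gagcgcttcGACCATCACTGCccctgggtg
Zdhhc8: gaggactttGACCATCACTGCccctgggtc
Zdhhc5: gaggaatttGACCATCACTGCccttgggta
Zdhhc4: caccggttcGACCATCACTGTgtttgggtg
Zdhhc2: ttgaagatgGATCATCATTGCccatgggtg
Zdhhc13: gctcgctttGATCAGCACTGCttttggact
Searched in frame in the longest complete coding sequence, 20 of the 21 acyltransferases held codons for Asp-His-His-Cys. The exception was Zdhhc13, whose stretch (chr7:48817197-48817226, plus strand, exon 13 of 17) encodes Asp-Gln-His-Cys, at codon 453 of 622. The Zdhhc18 motif starts at codon 211 of 380, and the stretch shown spans exons 3 and 4 of 8 (chr4:133613910-133615180, minus strand, intron included). The Zdhhc9 motif starts at codon 166 of 364, and its stretch spans exons 4 and 5 of 10 (chrX:48183130-48191221, minus strand).

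For the targeted gene, its relatives Lypla1 and Lypla2, and Ppt1, the capitals mark the codons of Gly-Phe-Ser-X-Gly-Gly, the nucleophile elbow that holds the catalytic serine.
Lyplal1: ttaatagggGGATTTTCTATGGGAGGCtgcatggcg
Lypla1: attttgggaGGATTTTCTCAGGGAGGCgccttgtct
Lypla2: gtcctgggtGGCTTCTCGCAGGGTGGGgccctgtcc
Ppt1: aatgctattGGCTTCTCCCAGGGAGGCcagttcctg
These 4 were the members with that form of the motif. The Lyplal1 motif begins at codon 123 of 239, and the stretch shown spans exons 3 and 4 of 5 (chr1:186089531-186100199, minus strand). The labels do not give the guide's target site.

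The libraries held 16731209 to 16784906 counts in the knockout group and 17007616 to 17108975 in the wild-type group. The groups differed very widely: in edgeR's quasi-likelihood test 82.3% of 13022 tested genes passed an adjusted p of 0.05, 41.3% higher and 40.9% lower in knockout cells. All 8 mammary epithelial markers examined were detected in both groups, at a summed 3075 to 3079 CPM (reads scaled to library size with TMM factors) in knockout and 3915 to 4027 CPM in wild-type libraries. Most were lower in knockout cells: Krt19, Epcam and Krt18 by 3.87-fold, 3-fold and 2.72-fold, and Krt8, Cldn7 and Cdh1 by 0.62, 0.6 and 0.16 on the log2 scale. Krt7 alone was called higher, 1.68-fold, at 1353 ± 10.1 CPM in knockout and 803 ± 21.7 CPM in wild type (SD, n = 3 each). Krt14 was not called. Cldn7 and Krt14 were scarce, with means of 2.24 and 1.71 CPM in knockout and 3.4 and 1.61 CPM in wild type. Of 6 leukocyte markers, Cd68 stood at 440 to 482 CPM in knockout and 7.98 to 8.31 CPM in wild-type cells, while the other 5 summed to 0.125 to 1.01 CPM in knockout and 0.223 to 0.393 CPM in wild type. The 3 endothelial markers summed to 0.875, 1.5 and 5.73 CPM in knockout replicates 1 to 3, so replicate 3 stood apart, and to 0.056 to 0.223 CPM in wild type. The 5 fibroblast markers summed to 167 to 180 CPM in knockout and 67.3 to 70.0 CPM in wild-type libraries, nearly all of it Pdgfra, and both adipocyte markers were at 0. Among scarce fibroblast markers, knockout replicate 3 stood apart too. It held 33 counts of Col1a2 and 16 of Dcn, against 6 and 4 in replicate 1 and 1 of each in replicate 2. The part of these markers in the results below was not tested.

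Of the 33 enzymes, 30 passed the filter on low counts. Among these 30, 15 were called higher and 8 lower in knockout cells, and 7 were not called, a share of 76.7% against 82.3% of all tested genes. In 23 of the 30 the CPM ranges of the groups did not overlap, against 83.1% of all tested genes. Against a minimum change of 1.2-fold (edgeR glmTreat), 13 were called higher and 4 lower, where 64.3% of all tested genes were called in either direction. Changes of at least 2-fold were called in 5 of 30 or 16.7%, against 28.0% of all tested genes. Among the 9049 tested genes within the CPM range of the 30, that share was 22.6%. The median log2 fold change of the 30 was 0.13. The median of its absolute size was 0.40, against 0.57 over all tested genes and 0.52 over those within that CPM range. On the deposited TPM, where the median gene shifted by -0.20 on the log2 scale, the split was 13 higher and 13 lower.

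**Figure D1:**
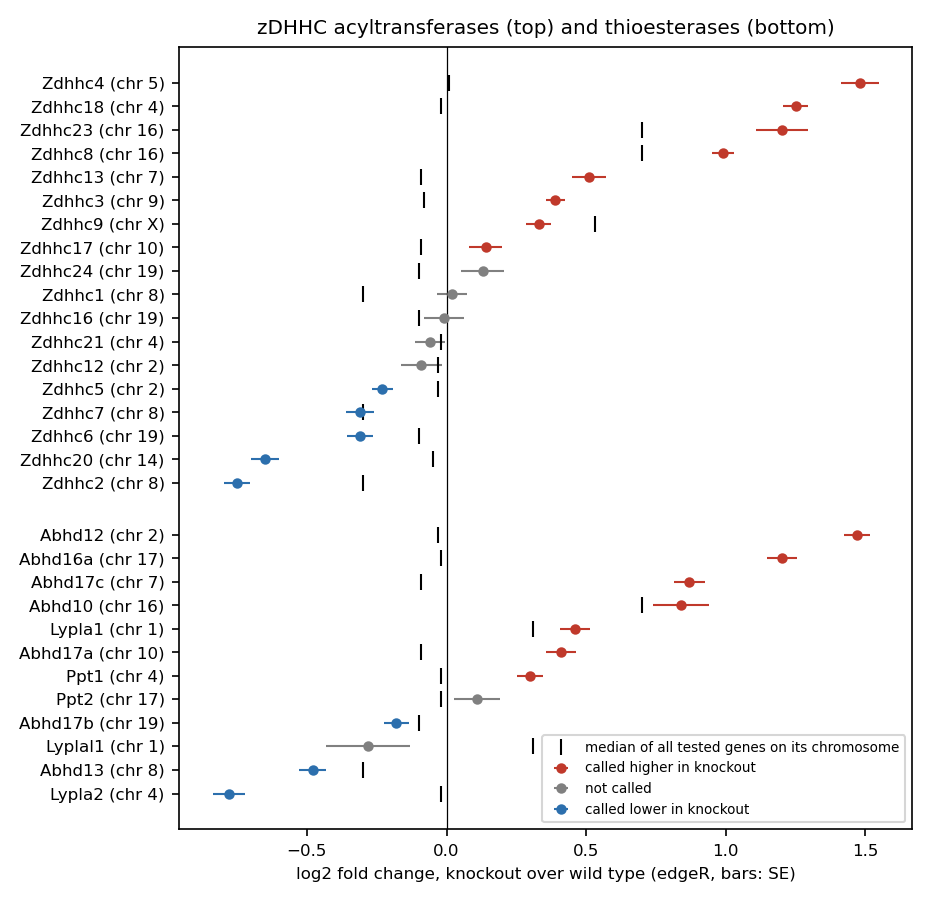
Log2 fold change, knockout over wild type, of the 30 tested enzymes with standard errors (edgeR, 3 libraries a group), coloured by call, beside the median of all tested genes on the same chromosome (black ticks). Zdhhc4 at 1.48 and Abhd12 at 1.47 lie farthest to the right, and Lypla2 at -0.78 and Zdhhc2 at -0.75 farthest to the left.

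Lyplal1 itself was the scarcest tested enzyme in knockout cells and among the 3 scarcest in wild-type cells. Its level was 7.96, 7.08 and 8.36 TPM in knockout replicates 1 to 3, against 11.5, 11.1 and 10.3 TPM in wild-type replicates 1 to 3. The groups did not overlap, yet the log2 fold change of -0.28 ± 0.15 (SE) missed the threshold in edgeR (adjusted p = 0.0886). It was called lower at -0.41 with upper-quartile factors (edgeR adjusted p = 0.014) and at -0.44 on log2(TPM + 1) (limma-trend adjusted p = 7.97e-04). These settings moved the median tested gene by -0.133 and -0.204 from the main fit, so they are not separate evidence of a fall. With 48 to 58 counts in knockout and 68 to 76 in wild-type libraries its precision was the lowest of the 30. RNA of the targeted gene was present in every knockout library, and its level does not show whether the coding frame is intact. In such bulk samples, fewer cells with a transcript and less of it per cell cannot be told apart.

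Its closest relatives went in opposite directions. Lypla1, which encodes acyl-protein thioesterase 1, had 51.0, 53.2 and 48.7 CPM in knockout libraries, against 38.0, 38.1 and 35.2 CPM in wild-type libraries. Lypla2, which encodes acyl-protein thioesterase 2, had 34.8, 37.7 and 42.3 CPM in knockout libraries, against 67.3, 66.7 and 63.7 CPM in wild-type libraries. Neither gene's groups overlapped, and log2 fold changes were 0.46 ± 0.054 and -0.78 ± 0.058 (edgeR adjusted p = 1.88e-08 and 1.68e-12). Per exon length, Lypla2 remained the more abundant of the pair in both groups, at 68.7 ± 5.74 TPM in knockout and 137 ± 4.68 TPM in wild type (SD, n = 3 each). The TPM ratio of Lypla1 to Lypla2 was 0.421, 0.406 and 0.331 in knockout libraries, against 0.162, 0.164 and 0.159 in wild-type libraries. A ratio of 2 genes within a library does not depend on how libraries are scaled. The ratio of Lyplal1 to Lypla1 was 0.300, 0.255 and 0.339 in knockout, against 0.505, 0.486 and 0.491 in wild type, again without overlap. The ratio of Lyplal1 to Lypla2 went the other way, at 0.126, 0.103 and 0.112 in knockout, against 0.082, 0.0798 and 0.0781 in wild type, also without overlap. Between Lypla1 and Gm37988, a gene model on the same strand, 8.8% of Lypla1 exon bases are shared.

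Among the other thioesterases, Abhd12 and Abhd16a rose most. ABHD12 breaks down lysophosphatidylserine and ABHD16A makes it from phosphatidylserine, and ABHD16A is also known to remove palmitate from IFITM3. Abhd12 had 104, 106 and 115 CPM in knockout libraries, against 39.6, 38.7 and 39.0 CPM in wild-type libraries. Abhd16a had 74.5, 74.9 and 77.1 CPM in knockout, against 30.2, 33.2 and 35.4 CPM in wild type. The separation was wide for both, with fold changes of 2.77 and 2.29 (log2 1.47 ± 0.048 and 1.2 ± 0.054, edgeR adjusted p = 3.08e-20 and 3.35e-17). Abhd12 alone made up 17.9% of summed thioesterase TPM in knockout cells, against 8.13% in wild-type cells.

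The ABHD17 genes, whose products release palmitate from N-Ras and PSD-95, did not move together. Abhd17c had 72.4, 78.0 and 85.4 CPM in knockout libraries, against 43.6, 41.6 and 43.7 CPM in wild-type libraries, a 1.83-fold rise. Abhd17a, the most abundant of all 33 per exon length at 174 ± 11.6 TPM in knockout and 151 ± 3.5 TPM in wild type, rose 1.32-fold. Abhd17b fell, at 60.9, 65.3 and 64.1 CPM in knockout libraries, against 71.4, 73.7 and 70.5 CPM in wild-type libraries (log2 -0.18 ± 0.045, edgeR adjusted p = 7.81e-04), a change that was not called against a 1.2-fold minimum. The within-library ratio of Abhd17c to Abhd17b was 0.731 to 0.82 in knockout and 0.347 to 0.381 in wild type.

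Of the organelle enzymes, Ppt1, the lysosomal thioesterase lost in infantile neuronal ceroid lipofuscinosis, rose 1.23-fold, with 62.8 to 63.9 CPM in knockout and 50.3 to 52.6 CPM in wild type. That rise was not called on log2(TPM + 1) (limma-trend adjusted p = 0.0592) or against a 1.2-fold minimum (edgeR glmTreat adjusted p = 0.141). Its lysosomal companion Ppt2 had 18.2 to 22.8 CPM in knockout and 18.1 to 20.8 CPM in wild type and was not called, and 36.6% of its exon bases are shared with Gm20460. Abhd10, a mitochondrial enzyme known to act on peroxiredoxin 5, rose 1.79-fold to 12.5 ± 0.463 CPM in knockout cells, against 6.98 ± 0.742 CPM in wild-type cells (SD, n = 3 each), and 11.5% of its exon bases lie opposite the antisense gene Gm15591. Abhd13 had 47.9, 47.8 and 48.1 CPM in knockout libraries, against 70.5, 66.9 and 63.6 CPM in wild-type libraries, a fall by 0.48 on the log2 scale. In all, 7 thioesterases rose, 3 fell and 2 were not called, with a median log2 fold change of 0.35. The share called was 83.3%, near the 82.3% of all tested genes.

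**Figure D2:**
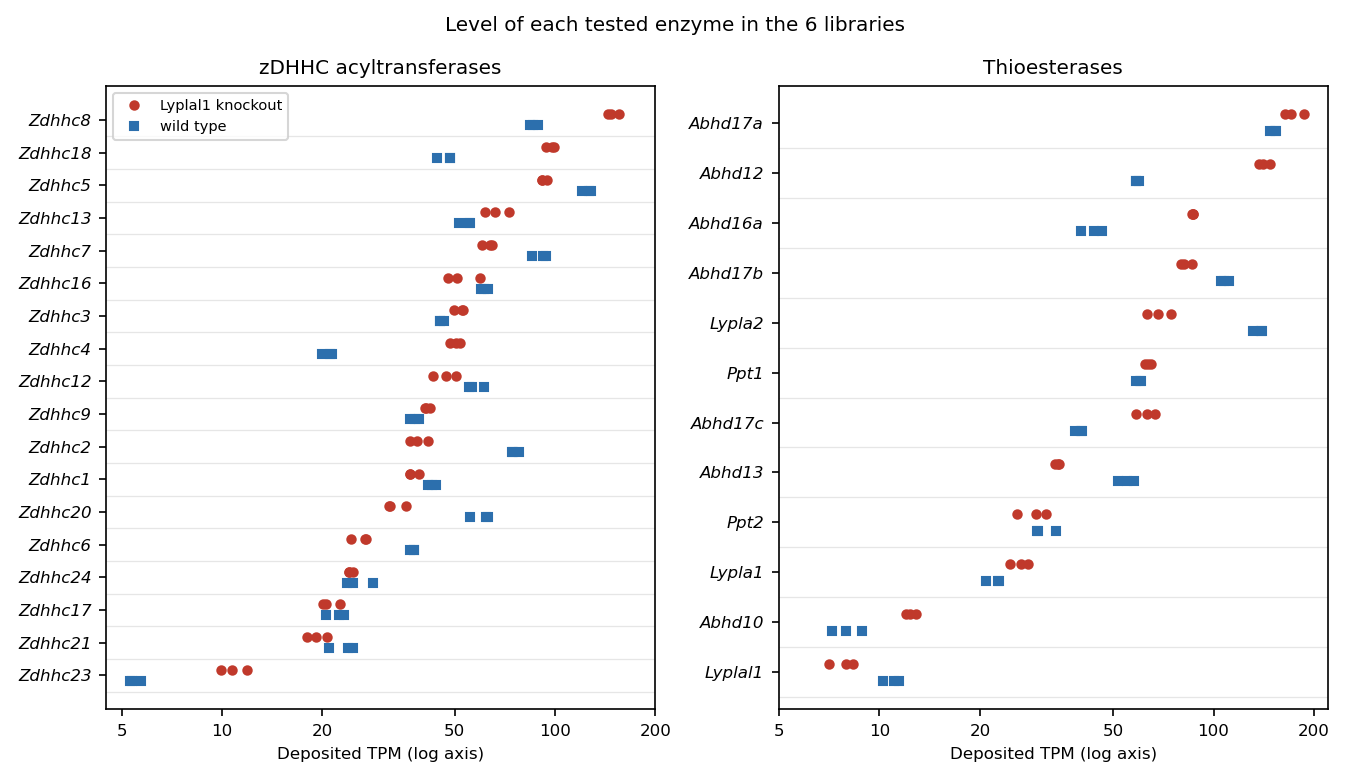
Deposited TPM of each tested enzyme in the 3 knockout (circles) and 3 wild-type (squares) libraries on a log axis, ordered by the knockout mean within acyltransferases (left) and thioesterases (right). Zdhhc4, Abhd12, Zdhhc18, Abhd16a and Zdhhc23 show the widest gaps with knockout to the right, and Lypla2, Zdhhc2 and Zdhhc20 with knockout to the left.

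Of 18 tested acyltransferases, 8 rose, 5 fell and 5 were not called, with a median log2 fold change of 0.07. The share called was 72.2%, against 82.3% of all tested genes. Zdhhc18 and Zdhhc9, relatives that both act on cGAS, were called higher. Zdhhc18 (ENSMUSG00000037553, chromosome 4, 133605299 to 133650154, GRCm38) had 141, 135 and 148 CPM in knockout libraries, against 60.8, 55.7 and 61.3 CPM in wild-type libraries. Zdhhc9 (ENSMUSG00000036985, chromosome X, 48171969 to 48208878) had 75.9, 73.2 and 76.3 CPM in knockout libraries, against 61.4, 59.9 and 58.5 CPM in wild-type libraries. The groups did not overlap for either gene. The rise was larger for Zdhhc18, 2.39-fold against 1.25-fold (log2 1.25 ± 0.046 and 0.33 ± 0.045), and the ratio of Zdhhc18 to Zdhhc9 was 2.31 to 2.42 in knockout and 1.16 to 1.31 in wild type. Their relative Zdhhc14 was close to 0, with 3, 0 and 1 counts in knockout and 3, 3 and 4 counts in wild type, and entered no test.

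The acyltransferases linked to STING split. Zdhhc3, a Golgi enzyme that also acts on PD-L1, had 193, 194 and 188 CPM in knockout libraries, against 144, 149 and 146 CPM in wild-type libraries, a 1.31-fold rise. Zdhhc7, its closest relative and also in the Golgi, had 63.2, 59.6 and 65.6 CPM in knockout libraries, against 79.3, 73.3 and 81.7 CPM in wild-type libraries, a fall by 0.31 on the log2 scale that was not called against a 1.2-fold minimum (edgeR glmTreat adjusted p = 0.0788). The within-library ratio of Zdhhc3 to Zdhhc7 was 0.772 to 0.874 in knockout and 0.479 to 0.544 in wild type. Zdhhc15 had 0 to 2 counts in knockout and 0 to 3 in wild-type libraries. Zdhhc1, reported to bind STING, had 41.6 to 44.3 CPM in knockout and 41.0 to 43.3 CPM in wild type and was not called, though on log2(TPM + 1) it was called lower at -0.18 (limma-trend adjusted p = 0.00461).

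Zdhhc8 and Zdhhc5, close relatives with long cytosolic tails, also moved apart. Zdhhc8 had 193, 188 and 209 CPM in knockout libraries, against 98.0, 101 and 97.0 CPM in wild-type libraries. Zdhhc5, a plasma membrane enzyme that palmitoylates NOD1 and NOD2, had 129, 124 and 128 CPM in knockout libraries, against 142, 152 and 151 CPM in wild-type libraries. Zdhhc8 rose 1.99-fold (log2 0.99 ± 0.041, edgeR adjusted p = 5.29e-18) and Zdhhc5 fell by 0.23 on the log2 scale (edgeR adjusted p = 5.87e-06), which was not called against a 1.2-fold minimum. Their order reversed: Zdhhc8 stood at 149 ± 5.78 TPM and Zdhhc5 at 92.6 ± 1.95 TPM in knockout cells, against 86.4 ± 2.25 and 125 ± 4.21 TPM in wild-type cells (SD, n = 3 each). Zdhhc8 took 16.2% of summed acyltransferase TPM in knockout, against 9.4% in wild type.

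**Figure D3:**
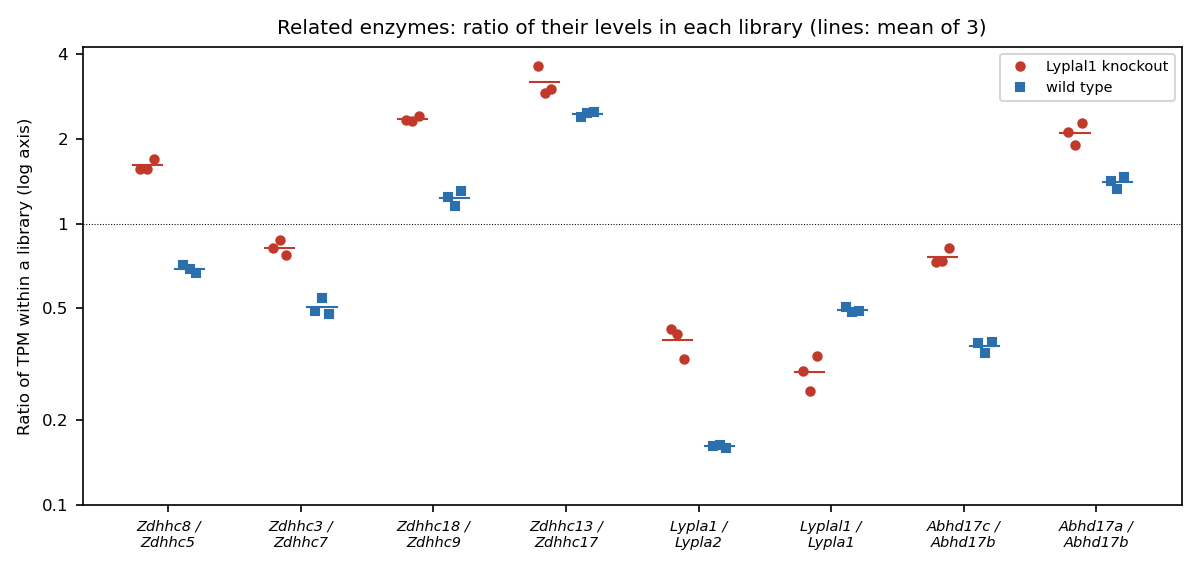
Ratio of deposited TPM between related enzymes in each library, on a log axis, for 3 knockout (circles) and 3 wild-type (squares) libraries with the mean of each group as a line. Knockout and wild-type libraries did not overlap in the 8 ratios shown, and the ratio of Zdhhc8 to Zdhhc5 lay above 1 in knockout (1.56 to 1.7) and below 1 in wild type (0.667 to 0.714).

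The 12 within-library ratios computed, chosen with the results known, are given as a description. In 11 of them the groups did not overlap, and the exception was Ppt1 to Ppt2. For single genes, CPM ranges did not overlap in 83.1% of all tested genes. No such share was computed for ratios of other gene pairs, so whether the count is particular to related enzymes was not tested. With 3 libraries against 3, an exact two-sided permutation test cannot go below p = 0.1 for any of them.

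The largest rise of the family was in Zdhhc4, an enzyme of the endoplasmic reticulum. It had 37.2, 38.6 and 41.0 CPM in knockout libraries, against 14.3, 13.3 and 14.3 CPM in wild-type libraries, a 2.78-fold rise (log2 1.48 ± 0.068, edgeR adjusted p = 4.99e-17). Zdhhc23, known for acting on BK potassium channels, rose 2.29-fold at low levels, with 15.6, 18.5 and 17.3 CPM in knockout and 7.31, 7.79 and 7.31 CPM in wild type. Zdhhc13, which has ankyrin repeats and the variant motif shown above, rose 1.43-fold with 41.1 to 47.2 CPM in knockout and 29.2 to 31.4 CPM in wild type. Its ankyrin-repeat relative Zdhhc17, known for acting on huntingtin, had 38.0 to 42.8 CPM in knockout and 34.2 to 38.3 CPM in wild type. The groups overlapped for Zdhhc17, and its call (edgeR adjusted p = 0.0328) was lost in 9 of 16 alternative settings, among them the fits without knockout replicate 2, wild-type replicate 2 or wild-type replicate 3 (log2 0.10, 0.14 and 0.092), with a reversed sign on TPM.

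Falls were led by Zdhhc2 and Zdhhc20. Zdhhc2, which palmitoylates PSD-95 and the membrane protein CKAP4, had 61.8, 57.0 and 55.9 CPM in knockout libraries, against 101, 96.8 and 97.2 CPM in wild-type libraries (log2 -0.75 ± 0.046, edgeR adjusted p = 2.25e-14). Zdhhc20, known to act on EGFR and IFITM3, had 69.2, 61.9 and 63.4 CPM in knockout libraries, against 106, 104 and 94.5 CPM in wild-type libraries (log2 -0.65 ± 0.05, edgeR adjusted p = 6.63e-12). Neither gene's groups overlapped. Zdhhc6, which palmitoylates the chaperone calnexin in the endoplasmic reticulum, had 55.9 to 60.1 CPM in knockout and 71.2 to 73.6 CPM in wild type, a fall by 0.31 on the log2 scale that was not called against a 1.2-fold minimum (edgeR glmTreat adjusted p = 0.0803). Zdhhc16, the enzyme that palmitoylates ZDHHC6, was not called, at 42.8 to 55.1 CPM in knockout and 46.9 to 49.2 CPM in wild type. It shares 28.7% of its exon bases with Mms19 on the other strand, and without knockout replicate 3 it was called lower at -0.12 (edgeR adjusted p = 0.0463). On log2(TPM + 1) it was also called lower, at -0.22 (limma-trend adjusted p = 0.0173).

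The remaining acyltransferases were not called. Zdhhc12, which acts on NLRP3, had 20.5 to 24.9 CPM in knockout and 23.0 to 25.9 CPM in wild type, with a log2 fold change of -0.09. Zdhhc21, which acts on the kinase Fyn, had 64.6 to 72.1 CPM in knockout and 64.4 to 74.9 CPM in wild type. Zdhhc24 had 18.8 to 19.3 CPM in knockout and 16.2 to 19.3 CPM in wild type. The groups overlapped for all 3, and both Zdhhc12 and Zdhhc21 were called lower on TPM and with upper-quartile factors. Zdhhc25 had no count in any library, which allows up to 0.187 to 0.189 CPM per knockout library and 0.167 to 0.169 CPM per wild-type library (3 counts, counting error only).

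The summed acyltransferase RNA was alike on the TPM scale, and its makeup was not. It was 936, 902 and 927 TPM in knockout libraries, against 928, 916 and 912 TPM in wild-type libraries, groups that overlap. Summed thioesterase RNA was 767, 783 and 816 TPM in knockout, against 731, 723 and 722 TPM in wild type, without overlap. The ratio of thioesterases to acyltransferases was therefore 0.82, 0.868 and 0.88 in knockout libraries, against 0.788, 0.789 and 0.792 in wild-type libraries. Abhd12 alone had a mean of 142 TPM in knockout and 59 TPM in wild type. That gap is wider than the one between the summed thioesterase means of 789 and 725 TPM. Abhd16a also rose, with a mean of 86.5 TPM in knockout and 43.5 TPM in wild type, while other thioesterases fell. The higher ratio is therefore a net of rises and falls. Restricted to the 6 APT and ABHD17 genes (Lyplal1, Lypla1, Lypla2 and Abhd17a to Abhd17c), the ratio went the other way, with 0.434, 0.462 and 0.478 in knockout, against 0.512, 0.513 and 0.507 in wild type. The largest fall among these 6 was in Lypla2, with a mean of 68.7 TPM in knockout and 137 TPM in wild type. Both sums were higher in knockout on the TMM-scaled CPM scale, 1316 ± 26.8 against 1154 ± 10.6 CPM for acyltransferases and 636 ± 24.6 against 494 ± 3.17 CPM for thioesterases (SD, n = 3 each), so only the ratios are free of the scaling. They are sums over chosen genes, given without a test, and RNA sums do not measure enzyme activity.

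**Figure D4:**
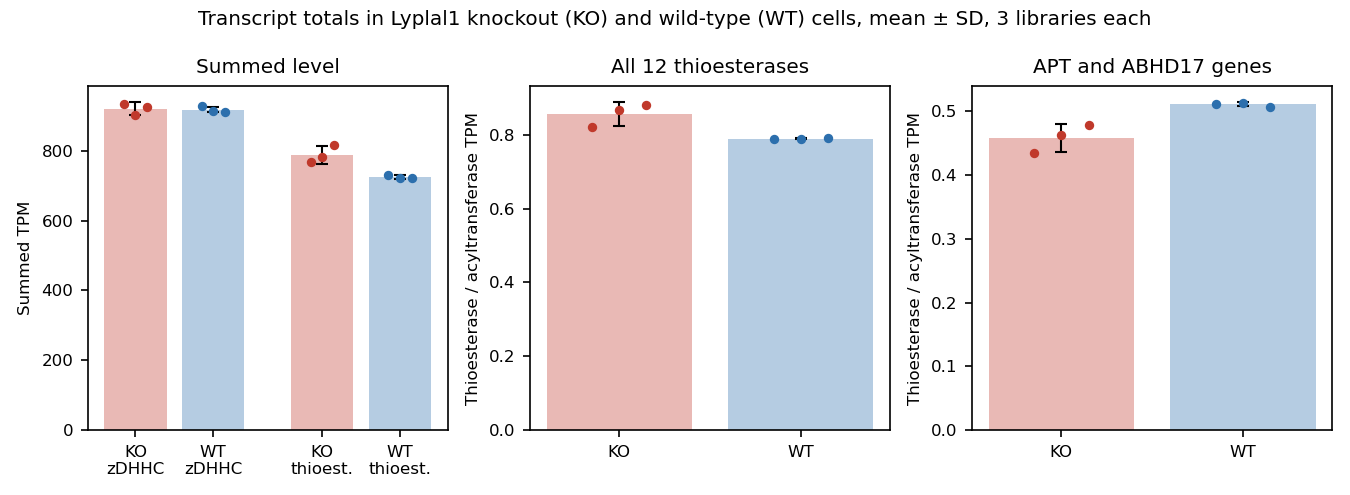
Summed TPM of acyltransferases and thioesterases (left), the ratio of all 12 thioesterases to acyltransferases (middle) and of the 6 APT and ABHD17 genes to acyltransferases (right), as bars of the mean with SD and points for 3 knockout (KO) and 3 wild-type (WT) libraries. The middle ratio averages 0.856 in knockout and 0.79 in wild type, and the right one 0.458 and 0.511.

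Ranked by TPM, the order of the enzymes differed between groups. The leading 3 in knockout cells were Abhd17a, Zdhhc8 and Abhd12, of which Zdhhc8 and Abhd12 overlapped. In wild-type cells they were Abhd17a, Lypla2 and Zdhhc5, with no overlap between neighbours. Of 29 neighbouring pairs in the order, 17 overlapped in knockout and 16 in wild type, so much of the middle order is not resolved.

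The 33 genes lie on 14 chromosomes, and whole chromosomes differed between the groups. On chromosome 16, 73% of 393 tested genes were called higher in knockout, with a median log2 fold change of 0.70, and all 3 enzymes there rose: Zdhhc23 by 1.2, Zdhhc8 by 0.99 and Abhd10 by 0.84 on the log2 scale. On chromosome 8, 59.4% of 748 tested genes were called lower, with a median of -0.30, and 3 of its 4 enzymes fell: Zdhhc2 by 0.75, Abhd13 by 0.48 and Zdhhc7 by 0.31. Zdhhc9 at 0.33 stood below the median of 0.53 on chromosome X, and Lypla1 at 0.46 near the median of 0.31 on chromosome 1, where Lyplal1 had -0.28. By contrast Zdhhc4, Abhd12, Zdhhc18 and Abhd16a lie on chromosomes 5, 2, 4 and 17, whose medians ran from -0.03 to 0.01. Tested genes within 5 Mb of Zdhhc18 had a median of -0.11 (n = 147), and those within 5 Mb of Zdhhc8 a median of 0.74 (n = 104). Around the other enzymes of chromosome 16 the neighbours lay below the chromosome median, at 0.30 (n = 22) for Zdhhc23 and 0.36 (n = 27) for Abhd10. The neighbours of Zdhhc9 had a median of 0.26 (n = 20). On chromosome 8 the neighbours' medians were -0.43 (n = 26) for Zdhhc2, -0.47 (n = 39) for Abhd13 and -0.37 (n = 101) for Zdhhc7. They were -0.32 (n = 87) for Zdhhc1, which was not called. Of 23 called enzymes, 14 (60.9%) had the sign of their chromosome's median, against 57.8% of 10704 called genes with a position. The sign of the neighbours' median within 5 Mb was shared by 16 (69.6%), against 57.4% of 10700 called genes. Copy number was not measured, and its part in these values was not tested.

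**Figure D5:**
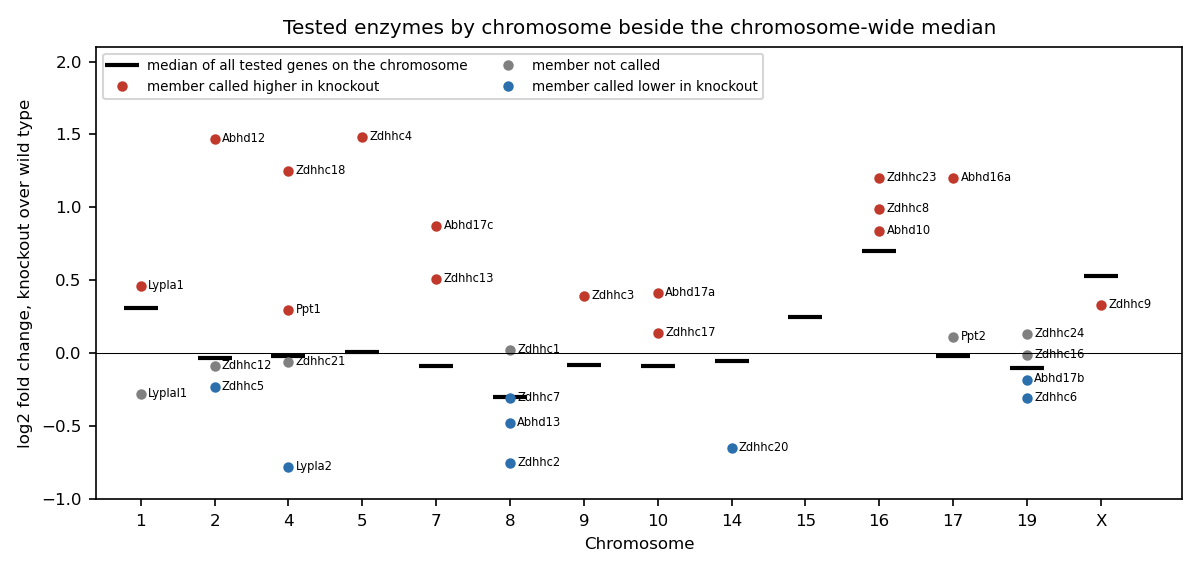
Log2 fold change, knockout over wild type, of the tested enzymes by chromosome, coloured by call, beside the median of all tested genes on that chromosome (black bars). The chromosome medians reach 0.70 on chromosome 16 and -0.30 on chromosome 8, where the enzymes lie at 0.84 to 1.2 and at -0.75 to 0.02, while Zdhhc18, Zdhhc4, Abhd12 and Abhd16a lie on chromosomes with medians near 0.

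The promoters of the enzymes were searched for 2 motifs of interferon signalling, since the innate immune list described further on holds interferon-inducible genes. RefSeq promoter windows on GRCm38.p6, from 250 bases before to 50 after a gene's start, matched 27 of the 33 enzymes with 33 windows. No window matched Zdhhc2, Zdhhc4, Zdhhc13, Zdhhc14, Lypla1 or Abhd12, so their promoters were not searched. The interferon-stimulated response element, searched on both strands as GAAA, any 2 bases and GAAA, was in 1 of these 33 windows, against 3.44% of 32851 windows of all genes. The gamma-activated site, searched as TTCNNNGAA, which reads the same on both strands, was in 3 (Abhd13, Zdhhc1 and Zdhhc7), against 8.3%. The single response-element match was in the promoter of Zdhhc8, shown for that reason (chr16:18235087-18235386, minus strand), with the match in capitals at 198 bases before the start.
Zdhhc8 promoter: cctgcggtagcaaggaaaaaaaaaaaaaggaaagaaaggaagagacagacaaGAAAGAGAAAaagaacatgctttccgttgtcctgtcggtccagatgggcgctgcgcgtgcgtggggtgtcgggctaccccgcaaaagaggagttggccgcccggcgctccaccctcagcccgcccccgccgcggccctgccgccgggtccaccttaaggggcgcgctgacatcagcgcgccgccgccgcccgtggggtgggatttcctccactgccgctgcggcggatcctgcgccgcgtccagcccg
A match is a run of letters and not a measured site, and it lies in a purine-rich stretch. The Zdhhc18 window (chr4:133633380-133633679, minus strand) held neither motif, which says only that these letters are not in it. That window lies inside the M21 span of the gene, 133605299 to 133650154, and the 5′ end of that span was not searched.

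Other genes of the pathway were taken from lists. Over 6 companion lists, 92 of 103 genes were tested, and 49 were called higher and 38 lower (94.6%, against 82.3% of all tested genes). Of the zDHHC relatives and accessory proteins, 3 of 6 were tested. Golga7, the partner protein of ZDHHC9, rose 1.18-fold (44.6 ± 0.759 CPM in knockout and 37.6 ± 1.15 CPM in wild type, SD, n = 3 each), a call lost on TPM and with upper-quartile factors. Its relative Golga7b had 0.062 to 0.5 CPM in knockout and 1.62 to 2.02 CPM in wild type. Selenok, which encodes the selenoprotein partner of ZDHHC6, fell by 0.31 on the log2 scale to 14.6 ± 0.985 CPM, against 18.1 ± 0.498 CPM in wild type. Zdhhc11, Zdhhc19 and Zdhhc22 were at or near 0 and untested.

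Of 18 tested genes of acyl-CoA supply, 8 rose, 9 fell and 1 was not called, with a median log2 fold change of -0.03. The share called was 94.4%, against 82.3% of all tested genes. Both stearoyl-CoA desaturases fell: Scd1 stood at 23.9 ± 1.16 CPM in knockout and 167 ± 4.63 CPM in wild type, and Scd2 at 851 ± 7.86 CPM in knockout and 2205 ± 14.1 CPM in wild type. The fatty acid transporter gene Slc27a1 rose 2.12-fold and the mitochondrial acyl-CoA thioesterase gene Acot9 rose 2.08-fold. Of 12 tested ABHD hydrolases outside the list, 4 rose, 6 fell and 2 were not called (83.3% called, median -0.17). Abhd5, the activator of triglyceride lipase, rose 2.42-fold and has 16% of its exon bases opposite an antisense gene, while Abhd18, Abhd8 and Abhd2 fell by 1.91, 0.63 and 0.39 on the log2 scale. Of 15 tested enzymes of other protein lipidations, 9 rose, 4 fell and 2 were not called (86.7% called, median 0.19). Nmt1, which attaches myristate, rose 1.57-fold, and Porcn, which acylates Wnt proteins, rose 3.35-fold to 20.2 ± 2.38 CPM, against 6.01 ± 0.215 CPM in wild type. Fntb, a farnesyltransferase subunit, and Chml, a Rab escort protein, fell by 0.70 and 0.75, and share 6.45% and 6.61% of their exon bases with Churc1 and Opn3.

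Proteins known to be palmitoylated were listed in 2 groups. Both lists were chosen with earlier results of these data known, so their direction is a description only. Of 14 tested innate immune members, 12 rose and 2 fell, with a median log2 fold change of 0.71. The 2 that fell were Nod1 (log2 -2.17) and Nod2 (log2 -0.4). Cgas and Tmem173, which encodes STING, rose by only 0.31 and 0.33 on the log2 scale. Over all tested genes, 41.3% were called higher and 40.9% lower. Ifitm3, a membrane protein that blocks virus entry, rose 15-fold to 731 ± 40.4 CPM, against 48.8 ± 1.54 CPM in wild type. Irgm1, an interferon-inducible GTPase, stood at 235 ± 6.44 CPM in knockout and 11.9 ± 0.993 CPM in wild type. Cd274, which encodes PD-L1, rose 45.9-fold and has 14.1% of its exon bases opposite an antisense gene, and Ifnar1, a subunit of the interferon receptor, rose 2.04-fold on chromosome 16. RNA levels do not measure the palmitoylation of these proteins. Of 30 growth, adhesion and trafficking members, 15 rose and 15 fell, with a median of -0.02. Rhob, which encodes a small GTPase, had 42.7 to 44.6 CPM in knockout and 321 to 339.9 CPM in wild type. The adhesion receptor gene Cd44 and the tetraspanin gene Cd9 fell by 1.14 and 0.86 on the log2 scale, with 10.7% of the exon bases of Cd9 opposite Gm26728, and the transferrin receptor gene Tfrc rose 3.06-fold.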

How the data were processed

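Total RNA of 6 untreated 4T-1 samples, 3 Lyplal1 knockout and 3 wild-type, was extracted with TRIzol and sequenced on a DNBseq platform, per the labels. The deposited tables hold raw gene counts, in whole numbers, and TPM, both made by the authors; STAR 2.7.8a, featureCounts 2.0.1 and GRCm38 are named in the submitters' processing notes, while no label or header states which annotation release was used or how strand and multi-mapping reads were handled. The deposited TPM used a gene length within 1% of the GENCODE M21 exon union for 98.6% of 9904 genes with at least 50 counts, so M21 gave names and positions (55227 of 55487 IDs matched). The range of count totals is given in the report, and the floors behind counts of 0 cover counting error only.

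Counts were fitted with edgeR 4.0.16 (filterByExpr, TMM, robust quasi-likelihood test, R 4.3.3), with Benjamini-Hochberg adjustment over 13022 genes and a threshold of 0.05, and the fit was tested on simulated data. CPM are counts scaled by TMM library sizes. Alternatives were RLE and upper-quartile factors, DESeq2 1.42.0, limma-voom (limma 3.58.1), other filters, glmTreat, a replicate block, fits without 1 library each, and limma-trend on TPM (log2, pseudocounts 1 and 0.1). No 2 libraries of a group agreed within sampling noise. Knockout replicate 3 differed most, with a chi-square per gene of 3.55 and 3.81 against knockout replicates 1 and 2, which had 1.82 between them. All enzymes are described. From each companion list, up to 4 called genes with the smallest adjusted p are named, and Nod1, Nod2, Cgas and Tmem173 are named besides. Same-numbered samples were checked for shared deviations. Members and lists were chosen with earlier results of these data known.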

Additional observations from a re-analysis of the deposited data

How the results depend on the processing

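Of the 30 tested enzymes, 17 kept direction and call under all 16 alternatives. Same-numbered samples did not deviate together (correlations -0.00742, 0.0416 and 0.0132), so the numbers pair nothing; with the replicate block 15 enzymes were higher and 8 lower, the same 23. Lower enzymes numbered 4 with glmTreat and 13 on both TPM scales, and higher companion genes 30 and 31. Without single libraries, 14 to 16 enzymes were higher and 8 to 9 lower, and 47 to 49 companion genes higher and 35 to 38 lower. Lyplal1 had -0.41 with upper-quartile factors, -0.44 on log2(TPM + 1), -0.48 on log2(TPM + 0.1) and -0.34 to -0.20 without single libraries. The median tested gene moved by -0.133 with upper-quartile factors, -0.204 on log2(TPM + 1) and -0.207 on log2(TPM + 0.1). Signs reversed with upper-quartile factors for Zdhhc1 (-0.11), Zdhhc24 (-0.0049) and Ppt2 (-0.026), and on the TPM scales for Zdhhc1 (-0.18 and -0.19), Zdhhc17 (-0.064 and -0.067), Zdhhc24 (-0.073 and -0.075) and Ppt2 (-0.1 on both). Zdhhc16 had 0.0073 without a filter and -0.12 to 0.072 without single libraries, and Zdhhc1 -0.0059 to 0.051. Calls were gained for Zdhhc21 without wild-type replicate 3 (-0.13), Zdhhc24 without wild-type replicate 1 (0.20) and Ppt2 without knockout replicate 1 (0.19). The thioesterase-to-acyltransferase balance in knockout was 0.483 on CPM without length, 0.458 over the APT and ABHD17 genes and 0.844 to 0.874 without single libraries; the thioesterase-to-acyltransferase balance in wild-type was 0.428, 0.511 and 0.789 to 0.791. The cause of these changes was not tested. Depth limits Lyplal1, Zdhhc14, Zdhhc15 and Zdhhc25.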
